A study of Mus musculus with 14 samples.

Results

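The 7 genes described here, Mecom, Prdm16, Meis1, Hlf, Mllt3, Msi2 and Hmga2, are regulators of hematopoietic stem cell self-renewal and were taken as a named list, 7 of 21441 protein-coding genes whose start could be placed. Each was followed in 7 lists of H3K4me3 peaks, 3 from mice fed a high-fat diet (HFD-LSK) and 4 from mice fed a low-fat control diet (LFD-LSK). The cells were LSK cells, a bone marrow fraction of stem and progenitor cells that lacks lineage markers and carries Sca1 and cKit, sorted by flow cytometry from the tibias and femurs of C57BL/6J males. The labels name no transgene or deletion in either group, and diet is the difference that they give. H3K4me3 was mapped by CUT&Tag, in which an antibody directs a transposase to the marked nucleosomes (the sample titles say CUT&RUN, the protocol CUT&Tag), and each list was called on 1 library. Nothing in the labels states that replicates came from separate mice, so p-values measure the spread between these libraries, which may be technical. LSK is a mixed fraction in which stem cells are a minority, so fewer marked cells and less mark per cell cannot be told apart.

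H3K4me3 is the trimethyl mark on lysine 4 of histone H3 that sits on nucleosomes flanking active or poised transcription starts, and broad domains of it are a known feature of genes that define a cell's identity. Mecom (also called Evi1 in its short form) and Prdm16 are zinc finger proteins of the PRDM family that maintain long-term stem cells. Meis1 is a homeodomain cofactor of HOX proteins, and Hlf is a bZIP factor of the PAR family that marks the most primitive stem cells. Mllt3 (AF9) reads acylated histones and recruits DOT1L, Msi2 is an RNA-binding protein that controls translation, and Hmga2 is an AT-hook chromatin protein best known from fetal stem cells.

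The lists held 9186 to 13094 peaks in HFD-LSK and 6921 to 10572 in LFD-LSK (exact permutation test, two-sided, P = 0.171). Read totals were not used here, and the depth was recovered from each peak's fold and P value as whole fragments at the summit. Mean coverage was 0.0891 to 0.268 fragments per base, and the weakest summit that a list still called held 4 to 21 fragments. That calling limit was 29.8 to 79.7 times the mean coverage in HFD-LSK and 58.1 to 101 times in LFD-LSK. These values cover counting error only. Of 6 genes that mark LSK cells, 4 had a called start (Kit and Cd34 in all 7 lists), whereas Ly6a, which encodes Sca1, and Slamf1 had none. No start was called for 4 T cell, 4 B cell or 5 neutrophil and monocyte markers, and the erythroid marker Klf1 was called in 6 lists.

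All 7 genes lie on the minus strand, and their first annotated starts fall on chromosomes 3, 4, 10 and 11 of GRCm38. RefSeq start windows of the build GRCm38.p6, each from 250 bases before to 50 bases after a start, matched all 7 genes. Mecom and Mllt3 each had another start far downstream that produces a shorter transcript, at 496555 bp for Mecom and 227084 bp for Mllt3. The 250 upstream bases of both starts of these genes and of Hlf, the only gene not called in every list, are given 5′ to 3′ on the transcribed strand, with CG dinucleotides in capitals, because their calls ranged from all 7 lists (the first starts of Mecom and Mllt3) to none (the second start of Mllt3).
Mecom, first start, chr3:30509760-30510009, minus strand: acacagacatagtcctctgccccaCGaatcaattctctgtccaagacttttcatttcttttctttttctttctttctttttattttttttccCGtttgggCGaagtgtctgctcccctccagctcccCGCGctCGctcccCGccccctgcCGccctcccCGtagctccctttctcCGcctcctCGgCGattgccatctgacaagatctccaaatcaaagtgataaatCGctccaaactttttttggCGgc
Mecom, second start, chr3:30013205-30013454, minus strand: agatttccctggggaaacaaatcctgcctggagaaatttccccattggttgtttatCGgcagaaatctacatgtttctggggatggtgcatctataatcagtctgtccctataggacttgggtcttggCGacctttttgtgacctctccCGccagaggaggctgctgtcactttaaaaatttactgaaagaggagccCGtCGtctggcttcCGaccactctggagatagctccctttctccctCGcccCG
Mllt3, first start, chr4:88033408-88033657, minus strand: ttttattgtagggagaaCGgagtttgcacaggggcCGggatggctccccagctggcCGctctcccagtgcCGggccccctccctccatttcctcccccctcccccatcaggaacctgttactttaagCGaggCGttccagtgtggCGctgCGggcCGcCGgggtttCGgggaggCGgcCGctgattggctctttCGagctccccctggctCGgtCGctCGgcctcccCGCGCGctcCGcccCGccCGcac
Mllt3, second start, chr4:87806324-87806573, minus strand: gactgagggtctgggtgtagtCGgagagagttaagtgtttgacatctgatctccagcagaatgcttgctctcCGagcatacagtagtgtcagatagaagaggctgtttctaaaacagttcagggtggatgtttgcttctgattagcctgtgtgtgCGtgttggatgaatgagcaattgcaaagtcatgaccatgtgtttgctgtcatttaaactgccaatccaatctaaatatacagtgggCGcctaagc
Hlf, first start, chr11:90390918-90391167, minus strand: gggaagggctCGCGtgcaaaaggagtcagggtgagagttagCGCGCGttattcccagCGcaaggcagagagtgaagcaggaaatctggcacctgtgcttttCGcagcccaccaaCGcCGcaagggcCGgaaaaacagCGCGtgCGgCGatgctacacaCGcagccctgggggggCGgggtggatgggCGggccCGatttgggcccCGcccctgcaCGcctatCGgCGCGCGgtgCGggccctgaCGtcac

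The full window at the first start held 19 CG dinucleotides in Mecom, 24 in Prdm16, 15 in Meis1, 30 in Hlf, 29 in Mllt3, 39 in Msi2 and 12 in Hmga2, against a median of 7 over all 32851 windows. The second start of Mllt3 held 4, fewer than that median, and the second start of Mecom held 9. Of the motifs searched on both strands, GGGCGG was present at the first start of 6 of the 7 genes, all but Meis1, and in 35.7% of all windows. CCAAT was present in 4 (Prdm16, Meis1, Mllt3 and Msi2), against 37.4% of all windows, and TATAAA in none, against 13.6%. GATAA was found in Mecom alone (25.4% of all windows), GGAAGT in Meis1 alone (23.8%), CACGTG in Msi2 alone (7.15%) and TGACAG at none of the first starts (19.2%). None of the 7 motifs contains another of them on either strand.

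Mecom and Prdm16 shared an unbroken run of 24 bases just downstream of their starts, from base 26 to base 49 in Mecom (chr3:30509710-30509733) and from base 9 to base 32 in Prdm16 (chr4:154636841-154636864), counted from the base after the start. The Mecom window ends at base 49, so 24 bases is a minimum and the run may extend further. The run is printed because these paralogs share it and only 2 of the 32851 windows contain it.
Mecom and Prdm16, shared run, 5′ to 3′: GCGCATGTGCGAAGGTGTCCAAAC
The longest run shared by any other pair of the first windows was 12 bases, in Hlf and Msi2, and 104 windows contained that run.

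All 7 genes carried H3K4me3 at their first start in all 3 HFD-LSK lists, and 6 of them did so in all 4 LFD-LSK lists. Called in all 7 lists were Mecom, Prdm16, Meis1, Mllt3, Msi2 and Hmga2. Over all protein-coding genes, the first start was called in at least 1 list for 53% and in all 7 lists for 21.8%. Among 10265 start regions of coding genes called at all, 39% were called in every list. Hlf was called in 3 of 3 HFD-LSK lists and in 2 of 4 LFD-LSK lists, missing from LFD-LSK replicates 1 and 4. That split did not pass the test (Fisher's exact test, two-sided, P = 0.429), and 6.92% of coding start regions had the same one, within 11.2% called in any 5 lists. No first start was confined to one diet. Of all 14659 regions, 0.3% were called in all HFD-LSK and no LFD-LSK list and 0% in the opposite pattern.

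The missing Hlf calls fell in the 2 lists with the highest calling limits. Where Hlf was called, its summit stood at 189, 164 and 155 times the mean coverage in HFD-LSK replicates 1 to 3 and at 151 and 180 times in LFD-LSK replicates 2 and 3. These heights were close to one another and did not separate the diets. The lowest summit called anywhere in LFD-LSK replicates 1 and 4 was 98.3 and 101 times the mean coverage, so a summit of the height seen elsewhere would have been above the lowest called one. Local background also enters a call, and its part at Hlf in those 2 lists was not tested.

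**Figure D1:**
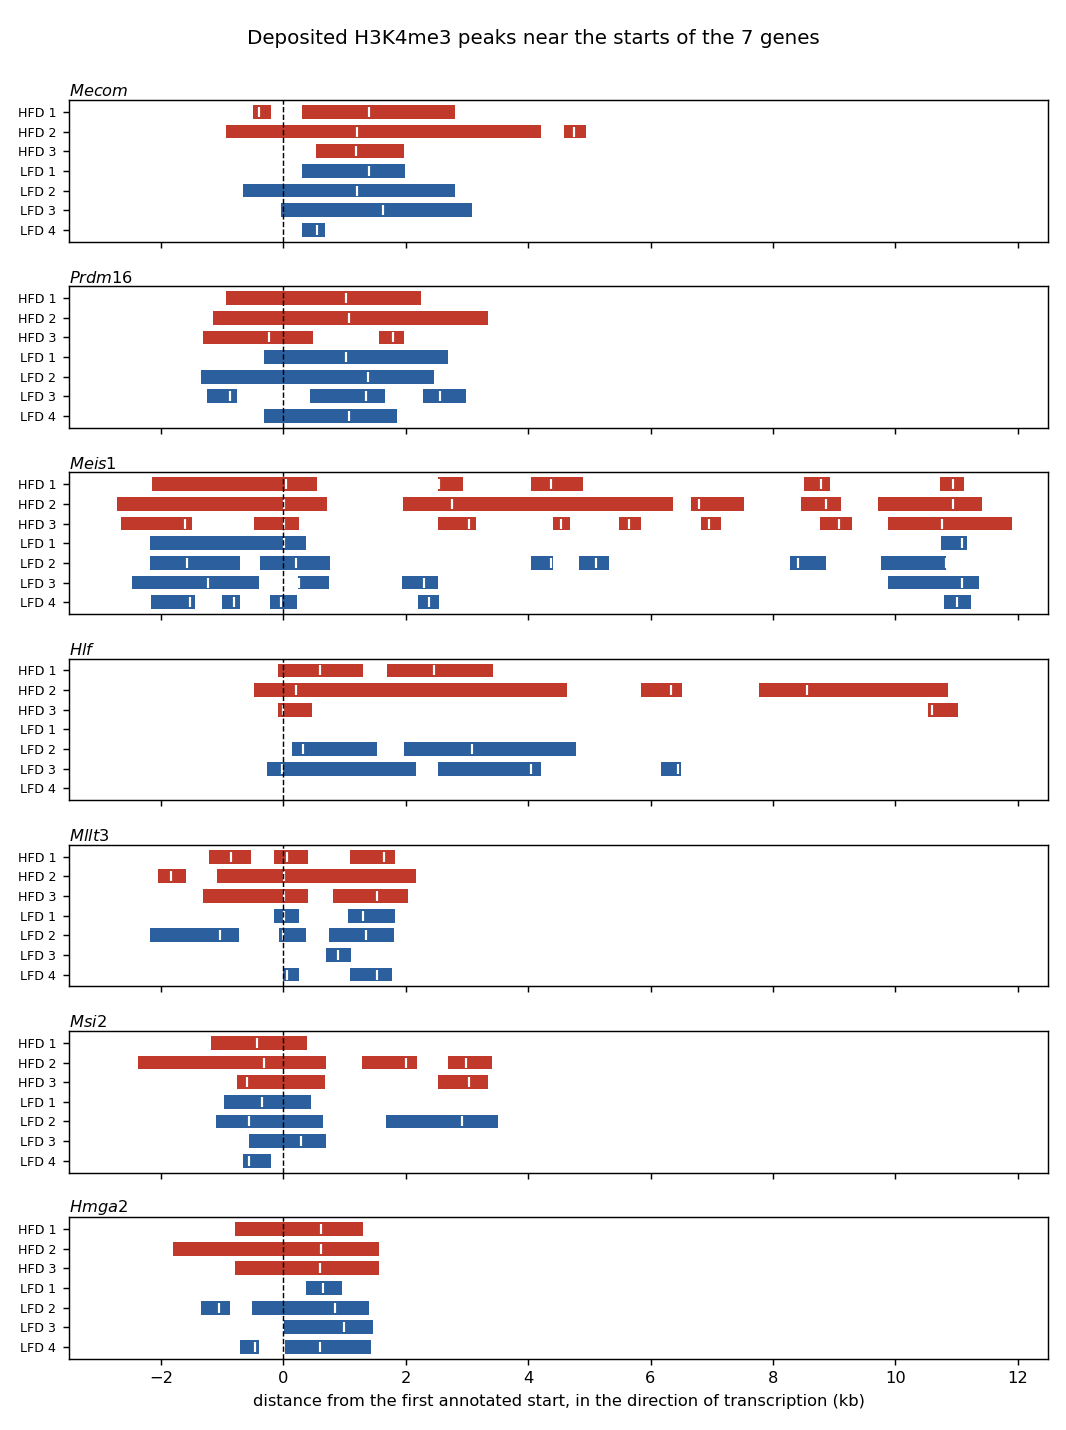
Deposited H3K4me3 peaks of the 7 lists (rows; red, HFD-LSK; blue, LFD-LSK) around the first start of each gene, drawn in the direction of transcription in kb, with a white tick at each summit. Peaks of Mecom lie mostly downstream of the start, the start peaks of Msi2 lie mostly upstream in 6 lists, and Meis1 has a further series of regions that ends near 12 kb.

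The start regions, that is the peaks of the 7 lists merged where they overlap or touch, were long. They spanned 5145 bp in Mecom (chr3:30505556-30510700), 4682 bp in Prdm16 (chr4:154633529-154638210), 3479 bp in Meis1 (chr11:19018214-19021692) and 5252 bp in Hlf (chr11:90386144-90391395). They spanned 4345 bp in Mllt3 (chr4:88031245-88035589), 3071 bp in Msi2 (chr11:88717578-88720648) and 3361 bp in Hmga2 (chr10:120474913-120478273). The median length of coding start regions called in every list was 1741 bp, and the 7 were longer than 91.9% (Msi2) to 99.4% (Hlf) of them. As merged spans, the start regions of all 7 genes were therefore long. A merged span depends on the widest list. The peak of HFD-LSK replicate 2 spanned all of the Mecom and Hmga2 regions and 3066 bp of that of Msi2. LFD-LSK replicate 4 covered 372 bp of Mecom and 451 bp of Msi2. Hlf, called in 5 lists, was set against regions called in all 7. Among 27 other stem cell genes with a called start, lengths ran from 446 bp (Cdkn1c) to 8434 bp (Etv6), so long regions were not particular to the 7. Other annotated starts fell inside 2 of the regions, Prdm16os and 5930403L14Rik in that of Prdm16 and C030037D09Rik in that of Msi2. CUT&Tag has no strand, so their share of the mark cannot be told apart from that of Prdm16 and Msi2.

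The width covered in each list was compared with the other coding start regions of the same list. In HFD-LSK, 7 of 7, 7 of 7 and 6 of 7 called genes were wider than the list's median, which was 909, 1314.5 and 884 bp in replicates 1 to 3. In LFD-LSK, 5 of 6, 7 of 7, 6 of 7 and 4 of 6 were wider than medians of 770, 1027, 889 and 570.5 bp. The genes' own median was 2692, 3708 and 1889 bp in HFD-LSK and 1551.5, 2965, 2431 and 1194.5 bp in LFD-LSK. The exceptions were Hlf in HFD-LSK replicate 3, Hmga2 in LFD-LSK replicate 1, Mllt3 in LFD-LSK replicate 3, and Mecom and Msi2 in LFD-LSK replicate 4.

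Mecom had the start region nearest the top by median fold rank, although Msi2 and Meis1 stood above it in HFD-LSK replicate 2, Hmga2 in HFD-LSK replicate 3 and all 5 other called genes in LFD-LSK replicate 4. Its fold rank, counted from the strongest region of a list, stood at 1.33%, 4.99% and 7.37% of the regions in HFD-LSK replicates 1 to 3 and at 1.91%, 0.940%, 11.5% and 88.6% in LFD-LSK replicates 1 to 4. It was among the top 12% of 6 lists and near the bottom of LFD-LSK replicate 4, and the diets overlapped. The local background of Mecom was 4.21 times that of the library in LFD-LSK replicate 4. In HFD-LSK replicate 3 it was 9.45 times, which was also the median of coding start regions there. Its summits held 90, 79 and 30 fragments in HFD-LSK and 94, 72, 29 and 15 in LFD-LSK. These summits lay downstream of the start in every list, between 545 and 1632 bp, and a median of 98.9% of the covered bases lay downstream. The start base itself was inside a peak in 3 of 7 lists, and the only stretch covered in all 7 ran from 539 to 680 bp downstream.

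Prdm16 was broad in every list. Its peaks covered 3185, 4494 and 2208 bp in HFD-LSK and 2994, 3800, 2431 and 2171 bp in LFD-LSK, more than the list's median each time. Its highest-fold summit lay 1028 to 1378 bp downstream in 6 lists and at -234 bp, upstream of the start, in HFD-LSK replicate 3. Its fold rank was 91.5%, 30.8% and 33.3% of the list in HFD-LSK and 58.5%, 17.9%, 26.5% and 25.6% in LFD-LSK. In HFD-LSK replicate 1 this low place went with 47 fragments at the summit, 234 times the mean coverage, and with a local background 25.0 times that of the library. MACS2 adds 1 to the summit and to the background before it divides them, so a fold falls by less than the multiple of its local background.

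Meis1, the HOX cofactor, was marked on both sides of its start. In HFD-LSK its peaks covered 2692, 3431 and 1889 bp, and in LFD-LSK 2546, 2610, 2585 and 1449 bp. The stretch covered in all 7 lists lay from -2138 to -1495 bp, where negative distances are upstream, and a median of 20.2% of the covered bases lay downstream. The highest-fold summit was within 200 bp of the start in 5 lists and at -1229 and -1525 bp in LFD-LSK replicates 3 and 4. Fold ranks were 27.0%, 4.67% and 10.6% in HFD-LSK and 36.7%, 23.5%, 35.6% and 21.9% in LFD-LSK, with HFD-LSK replicate 1 inside the LFD-LSK range.

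Hlf, where called, was either very broad or very narrow. Its peaks covered 3128, 5105 and 564 bp in HFD-LSK and 4177 and 4116 bp in LFD-LSK replicates 2 and 3. They ran mostly downstream, a median of 93.5% of the covered bases, and the region also held GENCODE transcript starts at 1227 to 1327 and at 2710 to 2944 bp. Fold ranks were 52.9%, 35.6% and 93.7% in HFD-LSK and 70.7% and 25.0% in LFD-LSK. The narrow peak of HFD-LSK replicate 3 was also its lowest rank, with 18 fragments at the summit and a local background 28.4 times that of the library. High local backgrounds were general in that list, where the median over coding start regions was 9.45 times, against 1 to 1.41 times in the other lists.

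Mllt3 was split into 2 or 3 peaks in 6 of 7 lists. Its peaks covered 1964, 3708 and 2920 bp in HFD-LSK and 1169, 2965, 412 and 940 bp in LFD-LSK. The HFD-LSK values were all above 3 of the 4 LFD-LSK values, and LFD-LSK replicate 2 overlapped them. The stretch covered in all 7 lists was only 9 bases, from 1097 to 1105 bp downstream. Fold ranks were 62.5%, 23.0% and 9.71% in HFD-LSK and 84.2%, 64.5%, 66.6% and 51.1% in LFD-LSK.

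Msi2 had the shortest start region of the group and 3 annotated starts within 48 bp. It was covered by a single peak in each list, of 1561, 3066 and 1428 bp in HFD-LSK and 1422, 1757, 1259 and 451 bp in LFD-LSK. These peaks lay mostly upstream, with 32.1% of the bases downstream as a median and the summit between -586 and -317 bp in 6 lists. Fold ranks ran from the top to the bottom of the lists within each diet, 40.3%, 3.53% and 82.6% in HFD-LSK and 8.22%, 91.4%, 36.3% and 32.2% in LFD-LSK. The ranks of 82.6% and 91.4% went with local backgrounds 18.9 and 37.2 times those of their libraries, while the summits there stood at 138 and 267 times the mean coverage. The median local background over coding start regions was 9.45 times in HFD-LSK replicate 3 and 1.05 times in LFD-LSK replicate 2.

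Hmga2, although best known from fetal stem cells, was called in all 7 lists of these adult cells. Its peaks covered 2090, 3361 and 2345 bp in HFD-LSK and 596, 2375, 1465 and 1720 bp in LFD-LSK. The summit stood 605 to 1000 bp downstream in every list, and the stretch covered in all of them ran from 370 to 965 bp downstream. Its heights in HFD-LSK were 164, 160 and 155 times the mean coverage, and in LFD-LSK 215, 186, 150 and 213 times, so the groups overlapped. Fold ranks were 64.9%, 37.0% and 4.68% in HFD-LSK and 57.4%, 71.8%, 43.8% and 57.1% in LFD-LSK.

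**Figure D2:**
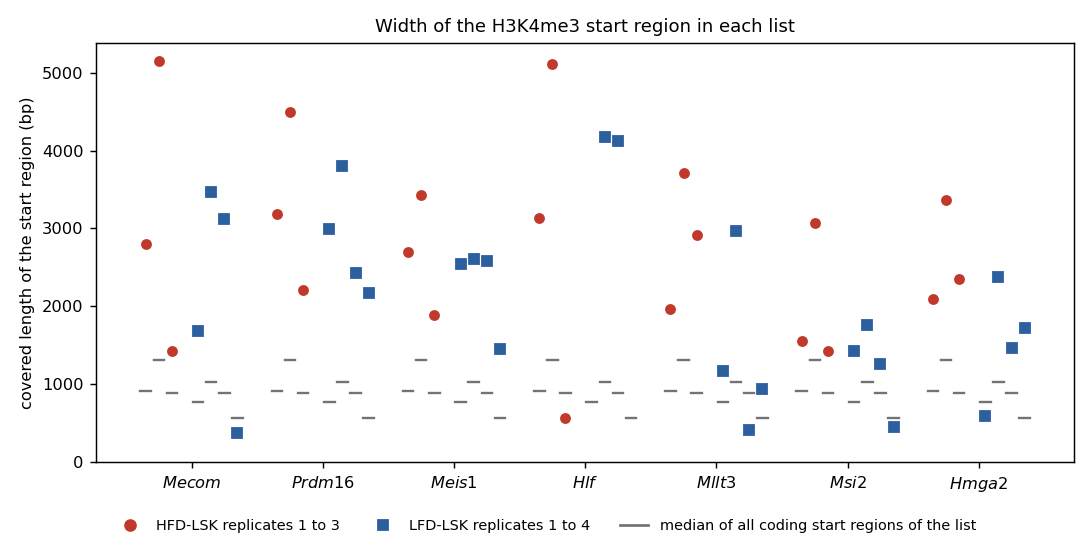
Bases covered by peaks in the start region of each gene (bp), 1 point per list where it was called (circles, HFD-LSK; squares, LFD-LSK), with a grey bar at the list's median over all its coding start regions. Most points lie above their bar, and for every gene the diets overlap.

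Whether diet changed the width was then tested. The start regions of all 6 genes called in every list were wider in HFD-LSK by the mean, by 373 bp (Meis1) to 1492.5 bp (Mllt3). Over all 4395 regions called in every list, 4088 were wider in HFD-LSK by the mean and the median difference was 278 bp, so this direction was that of the lists as a whole. Width was 2864 ± 873 bp (SD, n = 3) in HFD-LSK and 1372 ± 1109 bp (n = 4) in LFD-LSK for Mllt3, and 2599 ± 672 and 1539 ± 736 bp for Hmga2. Both comparisons gave P = 0.143 and an adjusted P of 0.716 (exact permutation test, two-sided, Benjamini-Hochberg over the 4395 regions). For Mecom, Prdm16, Meis1 and Msi2 the exact permutation P was 0.514, 0.543, 0.457 and 0.257. The widths of none of the 6 genes separated the diets, against 6.73% of the 4395 regions that were wider in every HFD-LSK than every LFD-LSK list and 0% that were narrower. At an unadjusted P under 0.05 there were 157 of these regions, or 3.57%, and at an adjusted P under 0.05 there were 0, or 0%.

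The width of single genes depended on which lists entered. Without LFD-LSK replicate 2, the widths of Mllt3, Msi2 and Hmga2 no longer overlapped between the diets (exact permutation P = 0.1, the smallest that 3 against 3 lists allow), as for 987 of 4485 regions. The widths of Meis1 did not overlap without HFD-LSK replicate 3 (764 bp, exact permutation P = 0.267), as for 733 of 4589 regions that were wider in the HFD-LSK lists. Without HFD-LSK replicate 2, the longest list, the difference turned to -44 bp for Mecom, -7 bp for Meis1 and -152.5 bp for Prdm16. In that setting the widths of Hmga2 did not overlap and were larger in HFD-LSK (796.75 bp, exact permutation P = 0.133). Of 4393 regions, 296 were likewise wider in every HFD-LSK list and 63 narrower. The median peak width was 757 to 1198 bp in HFD-LSK and 525 to 961 bp in LFD-LSK (exact permutation P = 0.314). The part of list length and calling limit in these widths was not tested.

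**Figure D3:**
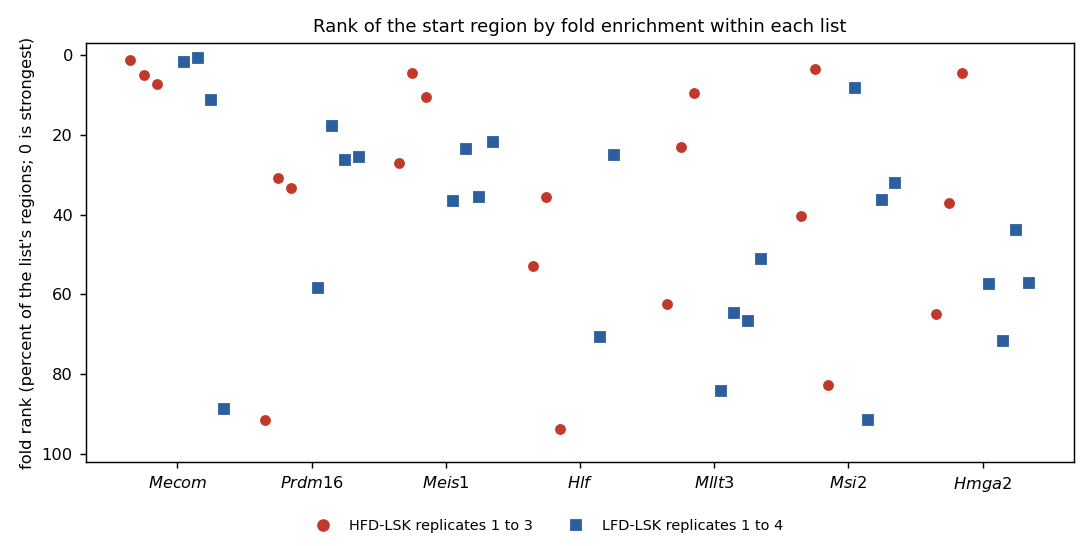
Fold rank of the start region of each gene as a percent of the regions in the list, with 0 the strongest at the top (circles, HFD-LSK; squares, LFD-LSK; an uncalled list has no point). Mecom lies within 12% of the top in 6 lists and at 88.6% in LFD-LSK replicate 4, whereas Msi2 spreads from 3.53% to 91.4%.

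The rank by fold was compared in the same way. In mean rank, Mecom, Meis1, Mllt3 and Hmga2 stood nearer the top in HFD-LSK and Prdm16 and Msi2 farther from it, and none of these differences passed the test. In places, the largest were those of Prdm16, 2718 places farther from the top in HFD-LSK (5300 ± 2479 against 2582 ± 1178, exact permutation P = 0.114), and Mllt3, -2415 places (3217 ± 2248 against 5632 ± 1551, P = 0.171, exact permutation). As a percent of the list the largest was that of Mllt3 (-34.9 percentage points, exact permutation P = 0.0857), and that of Prdm16 was 19.7 points (exact permutation P = 0.4). By places, adjusted P was 0.817 for Prdm16 and 0.851 for Mllt3 and Meis1. For Mecom, Meis1, Msi2 and Hmga2 the exact permutation P was 0.771, 0.171, 0.8286 and 0.571. Ranks grow with the length of a list, and over all 4395 regions the median difference was 632 places farther from the top in HFD-LSK, with 1570 regions nearer it. The ranks of 0 of the 6 genes separated the diets. Of the 4395 regions, 1.46% stood nearer the top in every HFD-LSK list and 4.28% farther from it (64 and 188 regions). With ranks as a percent of the list these counts were 163 and 63, and among the regions called in all 7 lists alone they were 117 and 105. With lists cut to the shortest they were 40 and 54, and by −log10 P 69 and 189, so the balance between the directions followed the scaling. At an unadjusted P under 0.05 there were 168 regions (3.82%) and at an adjusted P under 0.05 none (0%).

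When regions were ranked by −log10 P in place of fold, Prdm16 stood farther from the top in every HFD-LSK than in every LFD-LSK list, by 3811 places (exact permutation P = 0.0286, the smallest that 3 against 4 lists allow, adjusted P = 0.810). It was the only one of the 6 genes to separate on that scale, where 189 regions separated in that direction. For Mllt3, leaving out LFD-LSK replicate 4 gave ranks that did not overlap, nearer the top in HFD-LSK (-3183 places, exact permutation P = 0.1), and so did leaving out HFD-LSK replicate 1 for Mllt3 and Meis1 (-3592 and -1594 places). Without LFD-LSK replicate 4, 180 of 5949 regions stood nearer the top in every HFD-LSK list, and without HFD-LSK replicate 1, 217 of 4511 did. Without LFD-LSK replicate 1, Prdm16 stood farther from the top in every HFD-LSK list (3271 places, exact permutation P = 0.1), as did 324 of 5037 regions. The rank of Mecom was decided by LFD-LSK replicate 4, without which the difference of -1250 places became 78.7.

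**Figure D4:**
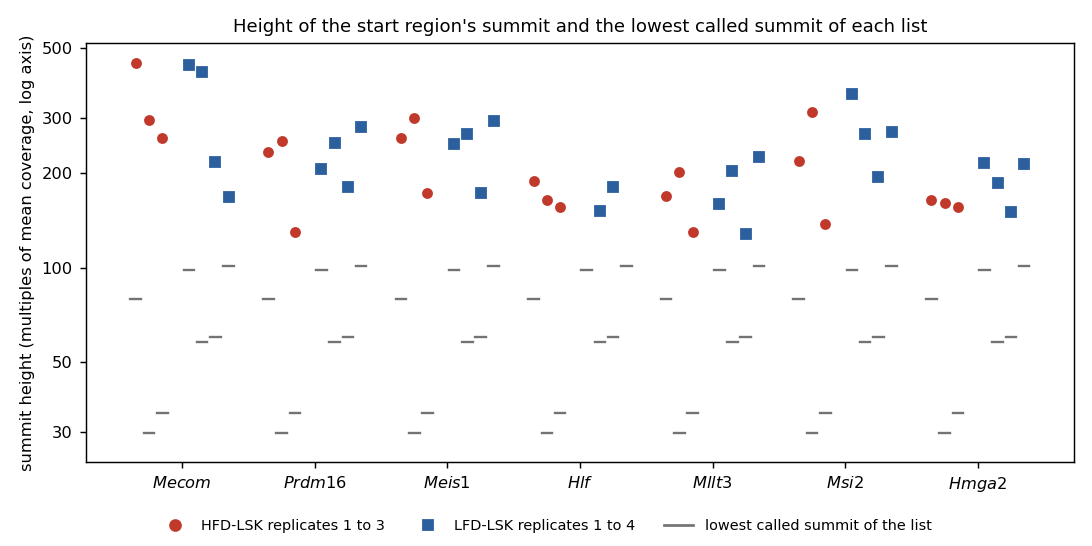
Summit height at the start of each gene, divided by the mean coverage of its library (log axis), 1 point per list where it was called (circles, HFD-LSK; squares, LFD-LSK), with a grey bar at the lowest summit that the list called. Every point lies above its bar, and the diets overlap for every gene.

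Summit height does not contain the local background. The recovered heights were 448, 295 and 259 times the mean coverage in HFD-LSK and 440, 418, 217 and 168 times in LFD-LSK for Mecom, whose mean was the highest of the group in both diets. Those of Prdm16 were 234, 254 and 129 times in HFD-LSK and 206, 250, 180 and 281 times in LFD-LSK. Those of Mllt3 were 169, 201 and 129 times in HFD-LSK and 159, 203, 127 and 225 times in LFD-LSK. In these genes each diet held a high and a low library. The height of Meis1 was 243 ± 64.3 (SD, n = 3) in HFD-LSK and 245 ± 51.5 (n = 4) in LFD-LSK, and that of Msi2 223 ± 87.6 and 272 ± 65.8.

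None of the 6 genes separated the diets by height, against 0.341% of regions higher and 1.73% lower in every HFD-LSK list. The exact permutation P ranged from 0.2 (Hmga2) to 0.943 (Meis1), and 1 of the 6 genes, Mecom, was higher in HFD-LSK by the mean, as were 1548 of the 4395 regions. Over all regions 0.887% had an unadjusted P under 0.05 and 0% an adjusted P under 0.05 by this exact permutation test.

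The second starts of Mecom and Mllt3 differed from the first ones. At the second start of Mecom, which begins the transcript of the short Evi1 form, 3 lists called a region (chr3:30011945-30013301), those of replicates 1 and 2 of HFD-LSK and replicate 2 of LFD-LSK. Its peaks covered 444 and 497 bp in HFD-LSK and 1357 bp in LFD-LSK, with summits of 89.6, 63.4 and 122 times the mean coverage, 758, 988 and 1140 bp past that start. The first start of Mecom in the same libraries stood at 448, 295 and 418 times, so the second start was the lower in each. The 4 lists without this call had calling limits of 34.5 (HFD-LSK replicate 3), 98.3, 60.0 and 101 times (LFD-LSK replicates 1, 3 and 4). All 3 called heights were above the limits of HFD-LSK replicate 3 and LFD-LSK replicate 3, and that of 122 times was above all 4 limits. GENCODE places 16 Mecom transcripts within 496180 to 496698 bp of the first start and 6 more from 271438 to 271799 bp, and no region lay within 1 kb of the latter. Of GENCODE's 7 groups of Mecom starts, 3 had a region within 1 kb. At the second start of Mllt3, whose upstream sequence is the poorest in CG of those printed, no list called a region. The same was true of a GENCODE transcript start of Msi2 128130 bp from the first start and of 3 groups of noncoding starts inside Prdm16 at 108108 to 302021 bp.

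Outside the RefSeq starts, 14 regions lay in the bodies of 6 genes, and Mllt3 had none. Only 1 of them was called in all 7 lists, and 4 were called in 1 list. Over all 14659 regions 30% were called in all 7 lists. That share is not a like comparison, since 10265 of these regions are coding start regions, of which 39% were called in every list. The body region called in all 7 lists lay 9708 to 11897 bp downstream of the start of Meis1 (chr11:19007072-19009261) in an intron, with no annotated start within it. Its summits stood at 110, 116 and 112 times the mean coverage in HFD-LSK and at 126, 139, 150 and 225 times in LFD-LSK, so every LFD-LSK value was above every HFD-LSK value. Regions with such lower heights in HFD-LSK were the 1.73% given above, and this one was singled out after its values were seen. Its peaks covered 382, 1702 and 2019 bp in HFD-LSK and 434, 1071, 1478 and 436 bp in LFD-LSK, which overlap.

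Meis1 carried 3 more regions between this intron region and its start. The one from 1942 to 6366 bp (chr11:19012603-19017027) was called in 6 lists, all but LFD-LSK replicate 1, and overlaps an exon, a noncoding GENCODE transcript start at 2680 bp and the start of Gm16141. Its summits were 105, 116 and 104 times the mean coverage in HFD-LSK and 110, 112 and 123 times in LFD-LSK replicates 2 to 4. A region from 6656 to 7521 bp, which holds a noncoding GENCODE transcript start at 6967 bp, was found only by HFD-LSK replicates 2 and 3. Another, from 8270 to 9290 bp, was found by all 3 HFD-LSK lists and LFD-LSK replicate 2. The lists without these calls had calling limits of 58.1 to 101 times the mean coverage, and the summits where called stood at 51.8 to 99.6 times.

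In Hlf, 2 intronic regions at 5842 and 7778 bp were called in 2 lists each, with summits of 43.2 to 75.0 times the mean coverage, and a further one at 18163 bp in 1 list. The Hlf region at 7778 bp holds a noncoding GENCODE transcript start at 8982 bp. In Msi2, regions at 1286 and 103081 bp each had a call in 3 lists (replicate 2 of either diet and HFD-LSK replicate 3), the first overlapping an exon and the second in an intron. In Hmga2, the region at 13537 bp overlaps an exon and the start of Gm51785, that at 47270 bp is intronic, and 3 lists called each. Prdm16 had 1 region, 86135 bp from its start at the start of Gm13133, and Mecom 2, at 4580 and 498413 bp, each in 1 list. A coding GENCODE start of Mecom at 498320 bp lies just before the region at 498413 bp. Of the 15 regions away from the first starts, the second start of Mecom included, HFD-LSK replicate 2 called 13 and LFD-LSK replicate 1 called 1. A total of 9 were called in both diets, 5 in HFD-LSK alone and 1 in LFD-LSK alone. Of all regions, most of them coding start regions, 20.8% were called in HFD-LSK alone and 2.58% in LFD-LSK alone. The shares for regions away from starts were not computed. None of the 15 was called in all HFD-LSK and no LFD-LSK list, a pattern of 0.3% of all regions.

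**Figure D5:**
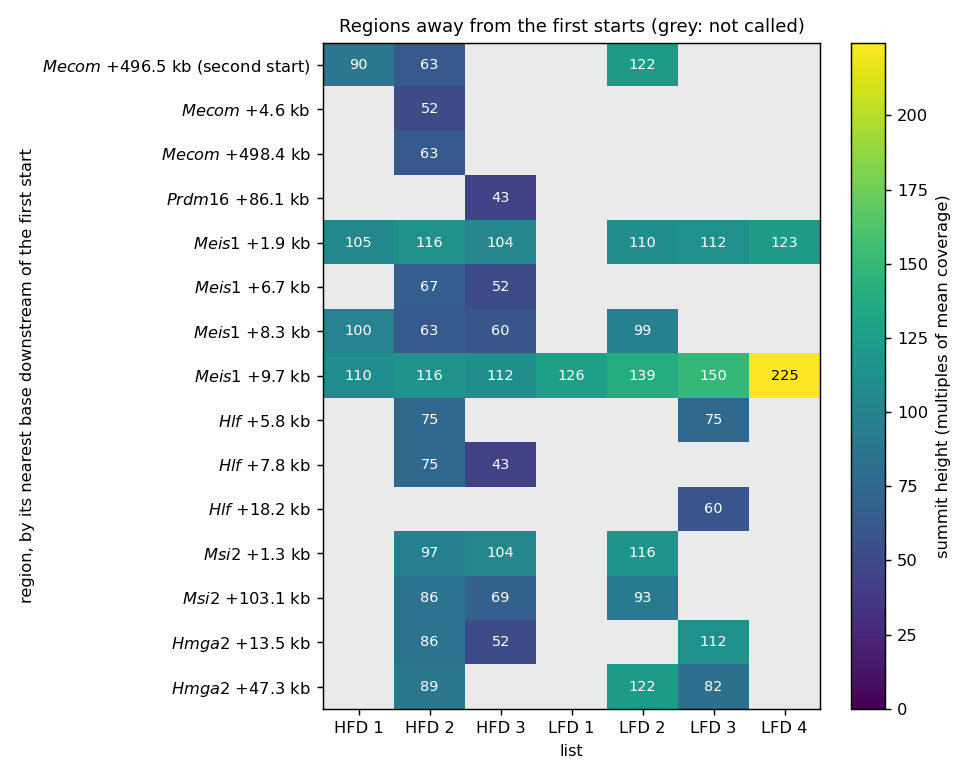
Summit height in multiples of mean coverage (color and number) of the 15 regions away from the first starts (rows, named by the distance of the nearest base) in each list (columns), with grey where no peak was called. The Meis1 region at 9.7 kb is the only row filled in all 7 lists, and HFD 2 fills the most rows.

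Calls at the close relatives of the 7 genes varied. Of 12 paralogs, 9 had a first start called in at least 1 list and 4 in all 7, namely Prdm2, Dbp, Nfil3 and Mllt1. Prdm1 was called in 5 lists, Tef in 4, Meis3 in 3 and Pknox1 and Hmga1 in 6, whereas Meis2 and Msi1 were called in 0. In the pairs Msi2 and Msi1, and Meis1 and Meis2, the member studied here was marked in every list and the relative in none. The ranks of none of the 4 paralogs called in all 7 lists separated the diets, and the width of Mllt1 was larger in every HFD-LSK list, which 6.73% of all regions were.

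Of 33 other genes with a part in stem cell maintenance, 27 had a first start called in at least 1 list and 17 in all 7. With any listed start counted, these were 28 and 18. Ranks were tested for the 17 called in all 7 lists, and none of these separated the diets or passed the adjusted test. Foxo3 and Kmt2a stood nearest the top, with mean ranks of 766 and 824. Lmo2, Erg, Gfi1b, Tek, Nfix and Lin28b had no call at the first start, although another start of Erg was called in 6 lists.

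For each gene called in every list, the coding gene with the most similar ranks was found by the mean absolute difference in rank over the 7 lists among 4665 genes. These were Gga3 for Mecom (237 places), Sf3b6 for Prdm16 (623), Ddx5 for Meis1 (474), Gmeb1 for Mllt3 (540), Atp5b for Msi2 (680) and Ankrd33b for Hmga2 (403). The median difference over all compared genes was 2235 to 3079 places. In LFD-LSK replicate 4, Gga3 ranked 5494 and Mecom 5769 of 6510 regions. That list entered the choice of Gga3, so this closeness follows from the choice and is not a separate observation.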

How the data were processed

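H3K4me3 CUT&Tag peak lists of 7 LSK libraries (3 HFD, 4 LFD) were analyzed, and 7 IgG libraries were not used here. Per the labels, the authors' tools included Trim Galore for trimming, Bowtie2 for alignment, Picard and, for peaks, MACS2, with GRCm38 as the build and no versions given. The paper's methods name GRCm39 and SEACR, and the peaks were read as GRCm38, where 74.7 to 87.6% lay within 1 kb of a coding first start. For each peak the authors deposited a score (10 times the −log10 p-value), a −log10 p, a −log10 q and a fold (summit pileup over local background, a ratio). The lowest −log10 p was 5.01.

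Peaks were merged across lists, and a start region overlapped 1 kb on either side of the first start. Starts came from RefSeq windows for 27025 genes and otherwise from the RefSeq gene end with the strand of the GENCODE gene of that symbol (45220 of 49997 genes). GENCODE starts in GRCm39 were placed by distance from the exact match of each first window, which gave the same distances as GRCm38 for the other starts of Mecom, Mllt3 and Msi2. Whole fragments at summits were solved from fold = (summit + 1) / (background + 1) and the Poisson P (100% of peaks, tolerance 0.005%). Summit height was chosen as a measure after seeing the data. Ranks, widths and heights were tested by exact permutation over 35 arrangements (smallest P 0.0286) for all 4395 regions called in every list. An adjusted P under 0.05 would need most of these regions at that smallest P, so its absence is not evidence of no difference. The scripts were tested on simulated data and used Python 3.11.15, numpy 2.4.6 and scipy 1.17.1. Named were the 7 genes, their paralogs, the 2 highest and the uncalled of the other stem cell genes, the markers and the gene most alike in rank. Some genes of the marker and paralog lists are not reported here by name. The genes and lists were chosen with earlier results of these data known.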

Additional observations from a re-analysis of the deposited data

Results flagged for a closer look

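Among 18 sets of 4 LFD-LSK values at the first starts (rank, width and height of the 6 genes called in all of them), 2 held a library far from the others by Dixon's test, and chance alone marks about 1 set in 20. Both concerned LFD-LSK replicate 4, the shortest list. The fold rank of Mecom was 88.6% of the list there and 0.940 to 11.5% in the other LFD-LSK lists. Meis1 covered 1449 bp there and 2546 to 2610 bp in the others. Mean coverage was lowest in that library, at 0.0891 fragments per base, and its part in these values was not tested.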

How the results depend on the processing

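The count of 6 genes called in every list fell to 4 with −log10 q of at least 5, where Mecom and Prdm16 were lost. It fell to 3 when each list was reduced to the length of the shortest. When peaks had to cover at least 50% of a region, it fell to 0. Regions called in all lists fell from 4395 to 2466, 1907 and 620 in these settings. With lists of equal length the gene body regions fell from 14 to 5. Ranks separated the diets for 0 genes as reported and for 1 with −log10 p, and widths for 0 as reported and for 1 with −log10 q of at least 5, with equal list length, with the longest single peak, and with both the longest and the shortest list left out (added after seeing the data). The gene separated by width was Mllt3 with equal list length and Hmga2 in the other width settings. In these settings, in order, 154 of 2466, 111 of 1907, 291 of 4395 and 431 of 5949 regions were wider in every HFD-LSK list. Those narrower in every HFD-LSK list numbered 0, 0, 0 and 400. When 1 library was left out and regions were merged anew from the others, so that a region could lose a peak, 5 to 6 genes were called in every list, ranks separated for 0 to 2, widths for 0 to 3, and body regions numbered 13 to 15. Over these omissions the rank difference (HFD-LSK minus LFD-LSK, places) ran from -1813.5 to 78.7 for Mecom, -1864 to 2589 for Msi2 and -2199 to 432 for Hmga2, and the width difference (bp) from -44 to 1814 for Mecom, -7 to 764 for Meis1 and -152.5 to 990.5 for Prdm16. The smallest P is then 0.0667 or 0.1, so a P there says nothing about stability.

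No gene passed the adjusted test under any of these settings (lowest adjusted P 0.526 for rank and 0.454 for width), but the design left little or no room to pass. Without a list the exact permutation P cannot go below 0.0667, so no adjusted P there could be under 0.05. With all 7 lists, most regions would have to reach the floor of 0.0286. Mllt3's width passed the unadjusted exact permutation test with equal list length (1584 bp, P = 0.0286). Direction turned in 13 of 95 rank values and 8 of 83 width values, and the cause was not tested. For rank these were Msi2 with −log10 p (-99.5), among regions called in all 7 lists (-6.12), without HFD-LSK replicate 3 (-1864), LFD-LSK replicate 1 (-546) or replicate 4 (-45.2), Hmga2 without HFD-LSK replicate 3 (432), and Mecom without LFD-LSK replicate 4 (78.7) or without the longest and shortest lists (20.3). By summit height, Hmga2 (-31.1), Mllt3 (-11.9) and Meis1 (-1.62) were lower in HFD-LSK although nearer the top by fold. For width these were, without HFD-LSK replicate 2, Mecom (-44), Meis1 (-7) and Prdm16 (-152.5), without the longest and shortest lists, Mecom (-639.5), Meis1 (-289.8) and Prdm16 (-378.5), and by rank of width, Meis1 (150) and Prdm16 (68.4 places, narrower in HFD-LSK).

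The replicate numbers were not taken to pair the libraries, since same-numbered libraries correlated at 0.0846, 0.0176 and 0.00366 in their rank deviations. The paper compared diets only inside a cohort, added a further cohort for LSK cells, and adjusted its peak test for covariates such as batch and pairing. The sample titles name no cohort or pair, so neither entered the tests here. Weak correlations between same-numbered libraries cannot exclude cohorts or pairs that the numbers do not follow. With the numbers as a replicate block, 6 genes were called in all 6 numbered lists, no P could go below 0.25, and 0 genes passed for rank or width. Mecom (78.7) and Msi2 (-45.2) turned direction in rank under the block. The lowest called summit was 29.8 to 101 times the mean coverage by library, and summits below it were not detectable there. The part of depth in these limits was not tested.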
